A study of Mus musculus with 19 samples.

Results

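The immediate early transcription factors are 10 of the 20408 genes measured by bulk RNA-Seq in the suprarenal aorta (SRA) of male mice. They were taken by name as the rows of Fos, Fosb, Jun, Junb, Egr1, Egr2, Egr3, Atf3, Ier2 and Nr4a1, and each name matched a single row. All 10 passed the filter on low values (a value of 10 or more in 4 or more mice), as did 14845 genes of the table. The study asked how the aorta responds to Angiotensin II (Ang II), a hormone that constricts arteries and raises blood pressure, when IKKβ is deleted in smooth muscle cells (SMCs). IKKβ is a kinase that activates the transcription factor NF-κB. Ang II or saline was infused under the skin by osmotic pump for 24 h, at 500 to 1000 ng/min/kg in the labels and 1000 ng/min/kg in the methods. Of the IKKβ+/+ mice (SMA-CreERT2 ApoE-/-, called WT in the labels), 5 received Ang II and 5 saline. Of the IKKβ-/- mice (SMA-CreERT2 Ikkβ Flox/Flox ApoE-/-, called KO), 5 received Ang II and 4 saline. Both genotypes therefore carried the inducible Cre under the SMA (Acta2) promoter, lacked ApoE, and received tamoxifen at the age of 8 weeks. Mice were anaesthetised with isoflurane and given the analgesic carprofen for pump surgery. Labels and methods give no batch and no hour of tissue collection. The mice of each group carry their own run of numbers, so a batch of animals or libraries and the group cannot be told apart.

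Immediate early genes are transcribed within minutes of a stimulus without new protein synthesis, and their mRNAs decay quickly. FOS and JUN proteins pair to form AP-1, EGR proteins are zinc finger factors that bind GC-rich sites, and NR4A1 is an orphan nuclear receptor. In the vessel wall these genes are known to respond to growth factors, Ang II, stretch and injury, and in many tissues they also respond to handling and dissection. A single time point at 24 h measures the mRNA present at collection, not the first response to the infusion.

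The whole tissue was sequenced to between 11382573 and 19906694 reads on genes per mouse, and values below are normalized counts, the reads of a mouse divided by its DESeq2 size factor. These values are comparable between mice for 1 gene, not between genes of unequal length. All 6 SMC marker genes on the list were tested and none was at 0 in all mice of a group, and their summed level was 304360 to 633459 normalized counts over the 19 mice. Ikbkb, the gene deleted in SMCs, measured 673 ± 78.6 (SD, n = 5) in saline-infused and 726 ± 46.3 (SD, n = 5) in Ang II-treated IKKβ+/+ mice. It measured 515 ± 74.3 (SD, n = 4) and 548 ± 87.9 (SD, n = 5) in the respective IKKβ-/- groups. The fitted difference was -0.39 log2 with saline (adjusted p = 0.0988) and -0.42 log2 with Ang II (adjusted p = 0.173), and the tissue also holds cells in which the Cre is not active. In whole tissue, fewer cells of a type and less RNA per cell cannot be told apart.

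Promoter sequences are shown for the 7 members that had a window in the RefSeq set used. Egr1, Egr3 and Ier2 had none there. The RefSeq table of GRCm38.p6 gave windows from 250 bases before to 50 bases after a start for Fos, Fosb, Jun, Junb, Egr2, Atf3 and Nr4a1, with 5 windows for Egr2. The last 150 bases before the start are printed 5′ to 3′ on the gene's strand, and capitals mark matches on either strand to the motifs named after the sequences.
Fos, chr12:85473740-85473889, plus strand: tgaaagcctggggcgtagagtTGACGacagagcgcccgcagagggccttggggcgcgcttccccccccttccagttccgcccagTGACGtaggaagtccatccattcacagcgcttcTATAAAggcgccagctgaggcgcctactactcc
Fosb, chr7:19310046-19310195, minus strand: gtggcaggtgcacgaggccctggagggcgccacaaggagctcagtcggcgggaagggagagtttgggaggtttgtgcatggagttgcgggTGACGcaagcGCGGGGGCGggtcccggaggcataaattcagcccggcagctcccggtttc
Jun, chr4:95052223-95052372, minus strand: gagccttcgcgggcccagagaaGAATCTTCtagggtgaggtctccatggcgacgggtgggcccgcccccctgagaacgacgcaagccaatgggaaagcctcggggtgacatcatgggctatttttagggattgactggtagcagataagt
Junb, chr8:84978749-84978898, minus strand: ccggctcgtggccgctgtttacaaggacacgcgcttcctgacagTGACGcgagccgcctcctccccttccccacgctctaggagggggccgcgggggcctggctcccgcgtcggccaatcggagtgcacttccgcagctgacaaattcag
Egr2, chr10:67537719-67537868, plus strand: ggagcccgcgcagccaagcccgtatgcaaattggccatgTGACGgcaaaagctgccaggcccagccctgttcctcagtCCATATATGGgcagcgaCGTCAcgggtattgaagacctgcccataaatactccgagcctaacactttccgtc
Atf3, chr1:191183334-191183483, minus strand: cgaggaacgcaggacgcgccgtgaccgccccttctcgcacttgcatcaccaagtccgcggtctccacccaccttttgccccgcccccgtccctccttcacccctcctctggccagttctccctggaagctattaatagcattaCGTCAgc
Nr4a1, chr15:101266696-101266845, plus strand: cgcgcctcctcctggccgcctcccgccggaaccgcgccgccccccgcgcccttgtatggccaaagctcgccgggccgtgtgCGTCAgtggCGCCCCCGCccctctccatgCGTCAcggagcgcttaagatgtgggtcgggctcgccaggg

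The windows of the members and all 32851 windows of the table were searched on both strands. The full cAMP response element, TGACGTCA, matched none of the members' windows and 1.79% of all windows. Its shorter core TGACG, which the full element contains, matched windows of 6 of the 7 members (all but Jun) and 20.8% of all windows. A member counted if any of its windows matched, and Egr2 had 5, so these figures are unlike measures. The core was added after the sequences were seen, so the count cannot show enrichment. In the Fos sequence printed above, such a core lies 66 to 62 bases before the start. The TATA box TATAAA lies 33 to 28 bases before the start of Fos. It matched 13.6% of all windows and, of the other members, only Junb at its start. The CArG box, the site of serum response factor, matched 4 of the 5 Egr2 windows and 1.63% of all windows. Of those 4, 3 overlap and share the site CCATATATGG in the sequence above, and the other holds CCTTTTTTGG. The EGR motif GCGNGGGCG matched Fosb and Nr4a1 and 5.55% of all windows. A pair of heat shock units, GAANNTTC, matched Jun and 7.86% of all windows. The AP-1 motif TGANTCA matched no member and 7.81% of all windows. These matches are descriptions of letters and say nothing of binding in these mice. The Fosb, Atf3, Nr4a1 and printed Egr2 starts lie inside the span that the deposited table gives for the gene.

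Ang II-treated IKKβ-/- mice had the lowest group median of all members except Ier2, and the spread between these mice was narrow for most members. In IKKβ-/- mice 7 of the 10 members fell with Ang II against saline, by 1.63 to 4.18 on the log2 scale (Fos, Fosb, Jun, Egr1, Egr3, Atf3 and Nr4a1). Of all genes tested, 2.69% fell and 2.59% rose at the same threshold, a limma adjusted p below 0.1 with more than a 1.2-fold change. In IKKβ+/+ mice only Fos passed, falling by 1.71, where 4.33% of genes fell and 4.33% rose. With saline, Atf3 was higher in IKKβ-/- than in IKKβ+/+ mice (2.40 log2). With Ang II no member passed between genotypes, and no member passed for the difference of the Ang II effect between genotypes. The comparisons share groups, so the saline-infused IKKβ-/- mice enter both the Ang II effect in IKKβ-/- mice and the genotype difference with saline.

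**Figure D1:**
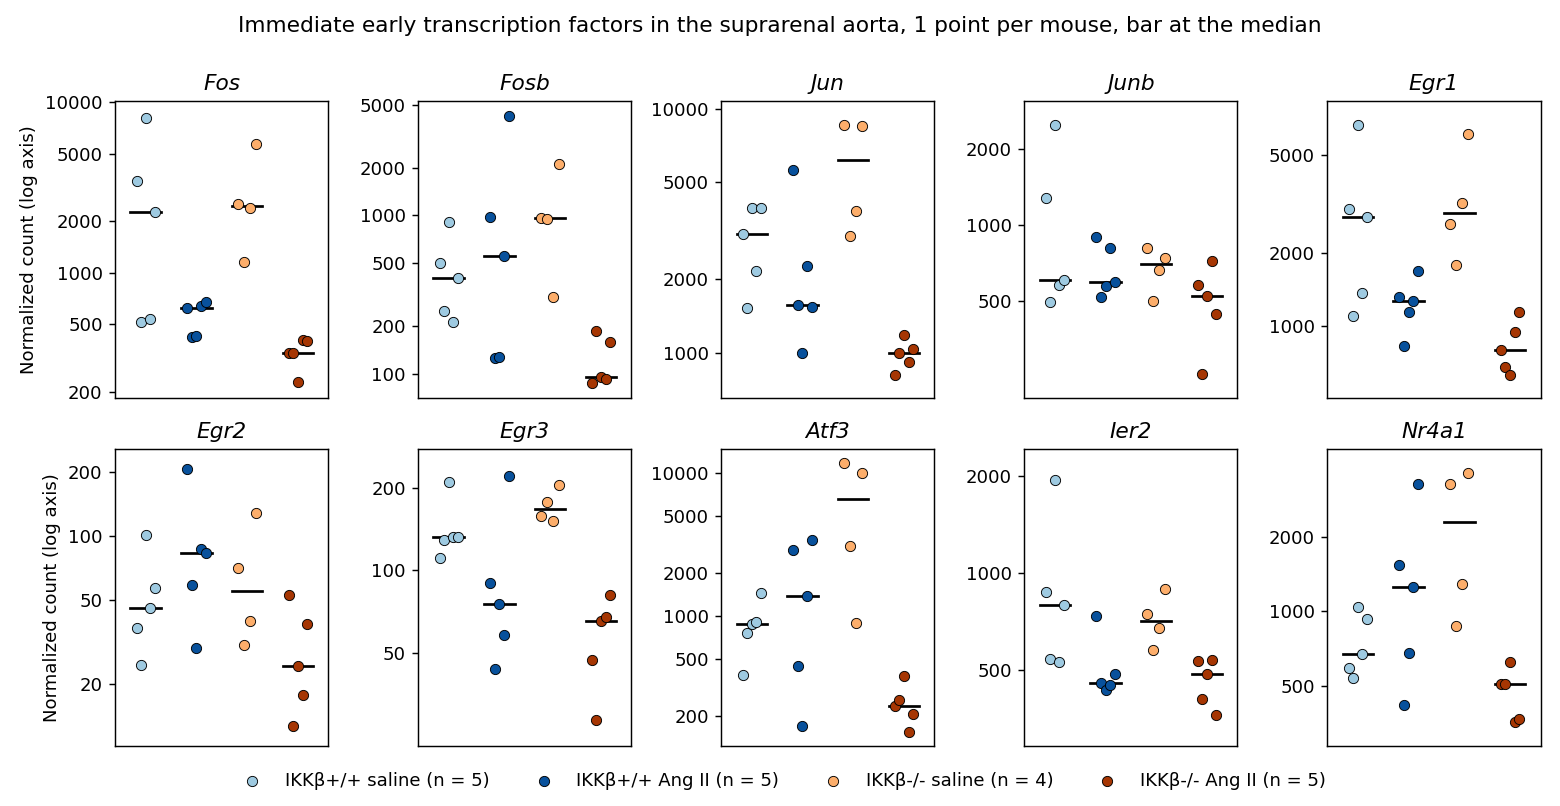
Normalized counts (log axis, scaled per gene) of the 10 members, with 1 point per mouse and a bar at the group median, for IKKβ+/+ mice (blue) and IKKβ-/- mice (orange), with saline (light) or Ang II (dark). The Ang II-treated IKKβ-/- mice sit together at the bottom for Fos (228 to 399.8), while for Jun (811 to 1181) and Atf3 (153 to 376) the Ang II-treated IKKβ+/+ mouse X2356 lies among them (995 and 168). The Ang II-treated IKKβ+/+ mice spread most in Fosb and Atf3 (33.5-fold and 20.3-fold from lowest to highest), and the saline-infused IKKβ+/+ mice in Fos (15.8-fold).

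Fos, the founding member of the AP-1 family (ENSMUSG00000021250.13, GRCm38 chromosome 12, 85473890 to 85477273), measured 3458, 515, 8147, 537 and 2256 normalized counts in the 5 saline-infused IKKβ+/+ mice. The 5 Ang II-treated IKKβ+/+ mice had 619, 417, 425, 635 and 676. The saline-infused mice were split, 3 far above every Ang II-treated mouse and 2 within their range. The 4 saline-infused IKKβ-/- mice had 2529.6, 1148, 2407 and 5719, and the 5 Ang II-treated ones had 336, 335, 228, 399.8 and 396. In this genotype the groups did not overlap, and every Ang II-treated IKKβ-/- mouse was also below every Ang II-treated IKKβ+/+ mouse. Fos fell by 1.71 ± 0.56 (SE) on the log2 scale in IKKβ+/+ mice (adjusted p = 0.0880) and by 2.91 ± 0.60 in IKKβ-/- mice (adjusted p = 0.0144). The call in IKKβ+/+ mice was lost when any of the 5 Ang II-treated mice, or saline-infused mouse X2370, X2373 or X2378, was left out (adjusted p up to 0.206, log2 difference -1.16 without X2373). It was kept in 2 of the 10 fits that left out a mouse, and lost with array quality weights, where Ier2 passed in its place.

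Fosb, a FOS paralogue that also gives a truncated splice form known as ΔFosB (ENSMUSG00000003545.3, chromosome 7, 19302696 to 19310051), measured 499, 251, 912, 214 and 402 in saline-infused and 984, 126, 127, 559 and 4213 in Ang II-treated IKKβ+/+ mice. The last Ang II-treated mouse, X2359, was above all others, the next highest being a saline-infused IKKβ-/- mouse at 2103. Saline-infused IKKβ-/- mice had 962, 953, 304 and 2103, and Ang II-treated ones had 87.8, 186, 96.1, 93.1 and 159. Fosb fell by 2.88 ± 0.77 log2 in IKKβ-/- mice (adjusted p = 0.0483), while the difference in IKKβ+/+ mice was 0.39 ± 0.72 (adjusted p = 0.814). Without saline-infused IKKβ-/- mouse X2401 or X2409 the adjusted p was 0.111 and 0.108.

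Jun, which encodes a partner of FOS in AP-1 (ENSMUSG00000052684.4, chromosome 4, 95049034 to 95052222), measured 3050.0, 1522, 3925, 2150.5 and 3912 in saline-infused and 5596, 1570.1, 995, 2268 and 1531 in Ang II-treated IKKβ+/+ mice. These groups overlapped, with Ang II-treated mouse X2350 the highest of both. Saline-infused IKKβ-/- mice had 8587, 3009, 3809 and 8458 and Ang II-treated ones had 811, 995, 1181, 910.5 and 1039, with no overlap. Jun fell by 2.45 ± 0.40 log2 in IKKβ-/- mice, the smallest adjusted p among the members (0.00368), and differed by -0.47 ± 0.38 in IKKβ+/+ mice (adjusted p = 0.521). Junb, which often restrains Jun (ENSMUSG00000052837.7, chromosome 8, 84976910 to 84978718), behaved otherwise. It ranged over 494 to 2491 in saline-infused and 517 to 899.7 in Ang II-treated IKKβ+/+ mice, and over 498 to 809 and 256 to 721 in the IKKβ-/- groups. Its groups overlapped in both genotypes, and its log2 differences were -0.42 (95% interval -1.15 to 0.31) and -0.48 (-1.26 to 0.29).

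Atf3, a stress-induced member of the ATF/CREB family that pairs with Jun (ENSMUSG00000026628.13, chromosome 1, 191170296 to 191218039), covered the widest range. Saline-infused IKKβ-/- mice had 11849, 3109, 888 and 10053. Ang II-treated IKKβ-/- mice had 234, 256, 376, 153 and 206, all below the lowest saline-infused mouse, X2406. In IKKβ+/+ mice it measured 385, 755, 884, 906 and 1448 with saline and 2875, 442, 168, 1369 and 3411 with Ang II, where the treated mice lay on both sides of the saline-infused ones. Atf3 fell by 4.18 ± 0.76 log2 in IKKβ-/- mice (adjusted p = 0.00793), and the difference in IKKβ+/+ mice was 0.31 ± 0.72 (adjusted p = 0.855). Between genotypes with saline it was higher by 2.40 ± 0.76 log2 in IKKβ-/- mice (adjusted p = 0.0971), the only member called there, where 3.40% of all genes were higher and 2.07% lower. That call was lost on leaving out any 1 of the 9 saline-infused mice (adjusted p 0.104 to 0.220), and the groups overlapped.

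Egr1, an early growth response zinc finger factor (ENSMUSG00000038418.7, chromosome 18, 34859823 to 34864984), measured 3004, 1103, 6635, 1372 and 2805 in saline-infused and 1316, 833, 1149, 1273 and 1677 in Ang II-treated IKKβ+/+ mice. Saline-infused IKKβ-/- mice had 2607, 1777, 3194 and 6087, and Ang II-treated ones had 798, 681, 636, 944 and 1144. As for Fos, the saline-infused groups reached far higher, the IKKβ-/- groups did not overlap, and the IKKβ+/+ groups did. Egr1 fell by 1.91 ± 0.40 log2 in IKKβ-/- mice (adjusted p = 0.0151), and the difference in IKKβ+/+ mice was -0.99 ± 0.38 (adjusted p = 0.134). Egr3, which lies among the less abundant members by reads (ENSMUSG00000033730.4, chromosome 14, 70077203 to 70082614, 36 to 281 reads per mouse), measured 110.5, 129, 209.7, 132 and 132 with saline and 89.97, 43.8, 75.7, 58.3 and 222 with Ang II in IKKβ+/+ mice. It measured 157, 177, 151 and 204 and 47.1, 28.6, 65.5, 67.4 and 81.0 in the respective IKKβ-/- groups. Egr3 fell by 1.63 ± 0.36 log2 in IKKβ-/- mice (adjusted p = 0.0179), and the IKKβ+/+ difference was -0.74 ± 0.33 (adjusted p = 0.214). Egr2, known for its role in myelinating Schwann cells (ENSMUSG00000037868.15, chromosome 10, 67535475 to 67542188, 11 to 193 reads per mouse), ranged over 24.6 to 101 with saline and 29.6 to 207 with Ang II in IKKβ+/+ mice, and over 30.6 to 128 and 12.7 to 52.7 in IKKβ-/- mice. Its groups overlapped, with log2 differences of 0.68 ± 0.50 in IKKβ+/+ (adjusted p = 0.466) and -1.13 ± 0.53 in IKKβ-/- mice (adjusted p = 0.264).

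Nr4a1, an orphan nuclear receptor also called Nur77 (ENSMUSG00000023034.7, chromosome 15, 101254269 to 101274795), measured 589.6, 541, 1039.7, 674 and 935 in saline-infused and 1534, 418, 682, 1255 and 3265 in Ang II-treated IKKβ+/+ mice. The highest was again Ang II-treated mouse X2359, and 3 of the 5 Ang II-treated mice were above every saline-infused one. Saline-infused IKKβ-/- mice had 3276, 877, 1295 and 3617, and Ang II-treated ones had 512, 509.6, 625, 358 and 368, with no overlap. Nr4a1 fell by 2.04 ± 0.46 log2 in IKKβ-/- mice (adjusted p = 0.0217), while the difference in IKKβ+/+ mice was 0.62 ± 0.44 (adjusted p = 0.449). Ier2, a small nuclear protein of the early response (ENSMUSG00000053560.5, chromosome 8, 84661331 to 84662854), measured 873, 542, 1941, 529 and 796 with saline and 739, 458, 434, 449 and 486 with Ang II in IKKβ+/+ mice, and 747, 577, 677 and 895 and 534, 407, 488, 538 and 364 in the IKKβ-/- groups. The IKKβ-/- groups did not overlap, yet the difference of -0.63 ± 0.28 log2 did not pass (adjusted p = 0.233). In IKKβ+/+ mice it was -0.72 ± 0.26 (adjusted p = 0.117).

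Over the 10 members, the median log2 difference with Ang II was -1.97 in IKKβ-/- and -0.45 in IKKβ+/+ mice, beside -0.003 and 0.006 over all genes tested. In IKKβ-/- mice 8 of 10 members (all but Junb and Egr2) had every Ang II-treated mouse below every saline-infused one, as did 2.88% of all genes. In IKKβ+/+ mice no member did, where 4.47% of all genes did. The 7 calls in IKKβ-/- mice numbered 6 or 7 when any 1 of its 9 mice was left out.

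**Figure D2:**
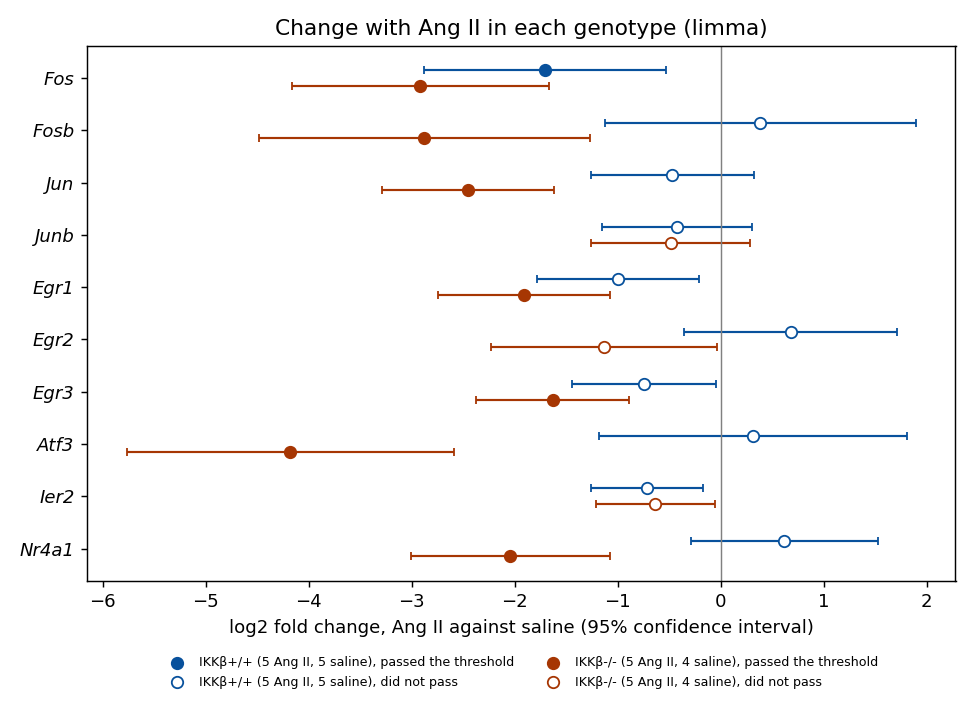
Log2 fold change of each member with Ang II against saline (limma, point) with its 95% confidence interval (bar), in IKKβ+/+ mice (blue) and IKKβ-/- mice (orange), where filled points passed the threshold. All 10 points of IKKβ-/- mice lie below 0, from -0.48 for Junb to -4.18 for Atf3, and 4 points of IKKβ+/+ mice lie above 0.

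The difference of the Ang II effect between genotypes (IKKβ-/- minus IKKβ+/+) was negative for 9 of the 10 members, and none passed. No gene passed in the whole table either (0% of 14845), and the smallest adjusted p was 0.215. At an unadjusted p under 0.05, 5 members had a more negative effect in IKKβ-/- mice, where 6.19% of all genes did. These were Atf3 (-4.49 log2, 95% interval -6.67 to -2.31), Fosb (-3.26, -5.47 to -1.06), Nr4a1 (-2.66, -3.99 to -1.33), Jun (-1.99, -3.13 to -0.84) and Egr2 (-1.82, -3.32 to -0.31). The count test on the recovered reads called 1 member with edgeR (Atf3, adjusted p = 0.0880) and 4 with DESeq2 (Atf3, Nr4a1, Fosb and Jun), among 3 and 279 genes in all. Fos, Egr1 and Egr3 had intervals that included 0 (-2.92 to 0.50 for Fos), as did Junb (-1.12 to 1.003) and Ier2 (-0.71 to 0.87). Without Ang II-treated IKKβ+/+ mouse X2356, which was low in Atf3 and Fosb, 3 members passed (Atf3 with an adjusted p of 0.0389, Nr4a1 and Jun), as did 79 of 14798 genes. Without saline-infused IKKβ-/- mouse X2406 Atf3 was the only member to pass (adjusted p = 0.0831), among 19 of 14724 genes.

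Between genotypes with Ang II, all 10 members were lower in IKKβ-/- mice by 0.13 to 2.12 on the log2 scale, with a median of -0.86 beside -0.006 over all genes, and none passed. The background was low in this comparison, 0.108% of genes lower and 0.0202% higher. The largest differences were those of Fosb (-2.12 ± 0.72), Atf3 (-2.09 ± 0.72), Egr2 (-1.54 ± 0.50) and Nr4a1 (-1.28 ± 0.44), with adjusted p from 0.212 to 0.218. At an unadjusted p under 0.05 were 5 members and 2118 genes. Only Fos separated the groups, as did 0.882% of all genes in the lower direction. DESeq2 on the recovered reads called 5 members and edgeR none, and without mouse X2356 limma called 4 (Fosb, Jun, Egr2 and Atf3). The genes called in all were also more in these fits, 521 (3.51%) with DESeq2 and 553 (3.74%) without X2356, against 19 with all mice by limma. With saline, 8 of 10 members had higher group means on the log2 scale in IKKβ-/- mice, with a median of 0.42, but all groups overlapped (4.68% of all genes were higher without overlap). Nr4a1 was higher by 1.39 ± 0.46 (adjusted p = 0.111) and Jun by 0.97 ± 0.40 (adjusted p = 0.190).

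Single mice were high or low in many members together. Saline-infused IKKβ+/+ mouse X2373 was the highest of its group in 9 of 10 members, saline-infused IKKβ-/- mouse X2409 in 7 and Ang II-treated IKKβ+/+ mouse X2359 in 6. Mouse X2372 was the lowest saline-infused IKKβ+/+ mouse in 6 members, X2403 the lowest saline-infused IKKβ-/- mouse in 7 and X2352 the lowest Ang II-treated IKKβ+/+ mouse in 6. After subtraction of the group means, the log2 values of all 45 pairs of members correlated positively over the 19 mice (r from 0.09 to 0.95, median 0.54). By permutation of mice within groups, two-sided and with Benjamini-Hochberg adjustment over the 45 pairs, 30 pairs passed at an adjusted p under 0.1 for both r and Spearman's rho. The strongest pair was Fos with Egr1 (r = 0.95, rho = 0.95, each with permutation p = 1e-05, the smallest the draws can give, adjusted 0.00045), and r was 0.90 without the 2 mice farthest from the median in Fos. Junb with Ier2 gave r = 0.86 and rho = 0.78 (permutation p = 0.00024 for r, adjusted 0.0054, and adjusted 0.0129 for rho), and r = 0.80 without the 2 farthest mice. Atf3 with Nr4a1 gave r = 0.80 and rho = 0.90 (permutation p = 0.00658 for r, adjusted 0.0185, and adjusted 0.00652 for rho), and r = 0.87 without the 2 farthest. Fos and Atf3 gave r = 0.17 and rho = 0.28 (permutation adjusted p = 0.450 and 0.261). The number of pairs passing was 19 without X2352, 11 without X2409 and 1 without the 5 mice with the highest Hspa1a.

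**Figure D3:**
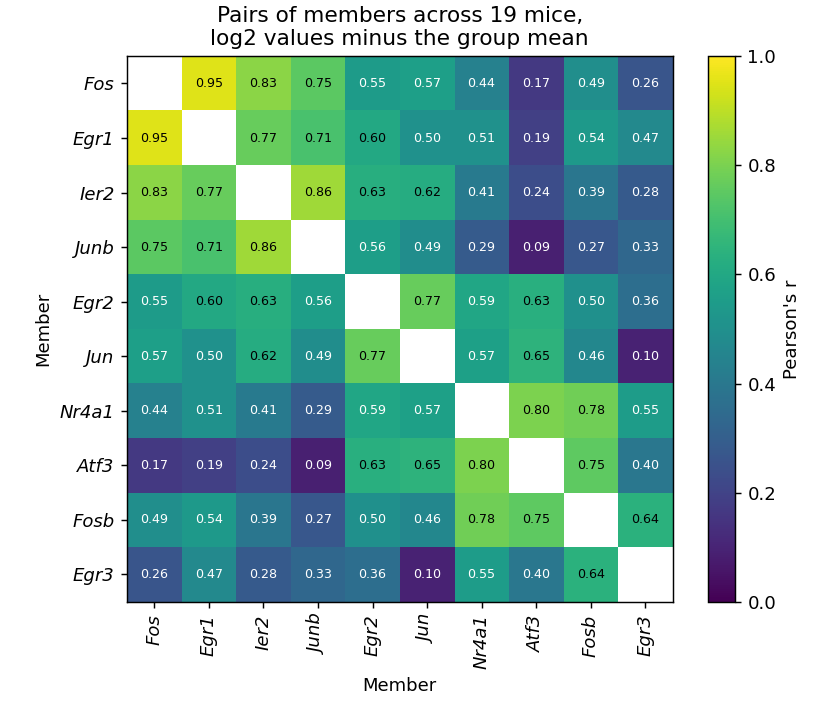
Pearson's r between members over 19 mice, on log2(normalized count + 1) minus the mean of each mouse's group, with colour from 0 (dark) to 1 (yellow). Fos, Egr1, Ier2 and Junb form a block of high r at the upper left (0.71 to 0.95), and Nr4a1, Atf3 and Fosb another (0.75 to 0.80), while Fos with Atf3 is at 0.17.

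The genes most like the members were found from the mean of the members' centred log2 values in each mouse. Over the 19 mice, groups not removed, the highest Pearson's r among 11415 other genes with a mean of at least 50 were those of Btg2 (0.95), an antiproliferative early response gene, Zbtb44 (0.86), Dusp1 (0.85), a phosphatase of MAP kinases, and Zfp36 (0.84), which destabilises AU-rich mRNAs. Then came Dusp16 (0.84), Jund (0.84), Ppp1r15a (0.84), Sde2 (0.83), Rlim (0.83) and the heat shock gene Hspa1a (0.83). Of these 10 genes, Btg2, Dusp1, Zfp36 and Jund are on the list of other immediate early genes. The genes of a mouse share its library and tissue, and the values include the group differences.

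The list of other immediate early genes held 49 tested genes. In IKKβ-/- mice 15 fell and 1 rose with Ang II, where 2.69% of all genes tested fell and 2.59% rose. The median log2 difference of the list was -0.54. The largest falls were those of Ccn1, a matricellular protein gene (-2.71 log2, adjusted p = 0.0189), Btg2 (-2.13, adjusted p = 0.00565) and Arc (-1.97, adjusted p = 0.0761), and Snai1 rose. In IKKβ+/+ mice 11 rose and 3 fell, with a median of 0.38, where 4.33% of all genes rose and 4.33% fell. The largest rises were those of Ptgs2, which encodes cyclooxygenase-2 (2.17 log2, adjusted p = 0.0471), Errfi1, a feedback inhibitor of EGF receptors (1.80, adjusted p = 0.0102), and Myc (1.62, adjusted p = 0.0507). With saline 6 were higher and none lower in IKKβ-/- than in IKKβ+/+ mice, led by Per1 (1.56, adjusted p = 0.0464), Csrnp1 and Cited2. Of all genes, 3.4% were higher and 2.07% lower there. None of the 49 genes passed for the difference of the effects or between genotypes with Ang II by limma. For the difference no gene of the whole table passed either. Between genotypes with Ang II, 0.0202% of all genes were higher and 0.108% lower in IKKβ-/- mice.

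Genes upstream of the members, and their partners, were read beside the share of all genes that passed. Among 27 tested kinases and factors upstream of immediate early genes, none passed with Ang II in IKKβ-/- mice, where the median was -0.02 log2. Of all genes tested, 5.29% passed there, 8.66% with Ang II in IKKβ+/+ mice and 5.47% between genotypes with saline. In IKKβ+/+ mice Map2k2 rose by 0.39 (adjusted p = 0.0794), and the factors Mef2c and Mrtfb fell by 0.61 and 0.47 (adjusted p = 0.0604 and 0.0574). Mrtfb was also lower in IKKβ-/- mice with saline (-0.48, adjusted p = 0.0842). Of 15 partners and repressors, Atf4 alone passed, and only in the fit for IKKβ+/+ mice with Ang II (0.58, adjusted p = 0.0762). None of these genes passed for the difference of the Ang II effect or between genotypes with Ang II.

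Some heat shock, clock and adipocyte genes also passed with Ang II in IKKβ-/- mice, not all in the direction of the members. Hspa1a, which encodes an inducible HSP70 chaperone, measured 9932, 9007, 733 and 7445 in saline-infused and 349, 293, 322, 161 and 92.5 in Ang II-treated IKKβ-/- mice. In IKKβ+/+ mice it measured 445, 850.3, 3781, 656 and 627 with saline and 6738, 392, 208, 581 and 756 with Ang II. Of the 10 heat shock genes, 4 fell with Ang II in IKKβ-/- mice (Hspa1a at -4.43 log2, Hspa1b at -4.18, Dnajb1 at -1.71, and Bag3). Their summed level was 8395 to 14032 with Ang II and 11020.2 to 50926 with saline. Mouse X2406 had the lowest Hspa1a among saline-infused IKKβ-/- mice, with 2407 counts of Fos, 3194 of Egr1 and 3809 of Jun. It was the lowest of its group in Fosb (304), Egr3 (151) and Atf3 (888). With a heat shock score as covariate 5 members passed in IKKβ-/- mice (Fos, Jun, Egr1, Egr3 and Atf3, with Atf3 at -2.62), among 1031 of 14845 genes, against 785 without the score. Without the 5 mice with the highest Hspa1a (X2350, X2373, X2401, X2403 and X2409) 3 passed (Fos -2.85, Jun -1.96 and Egr1 -1.96), among 927 of 14506 genes. That fit had 1 saline-infused IKKβ-/- mouse, X2406, which is assumed to vary like the other groups, and Atf3 was then at -1.92 (adjusted p = 0.361). Between genotypes with saline, Atf3 was then at 0.18.

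**Figure D4:**
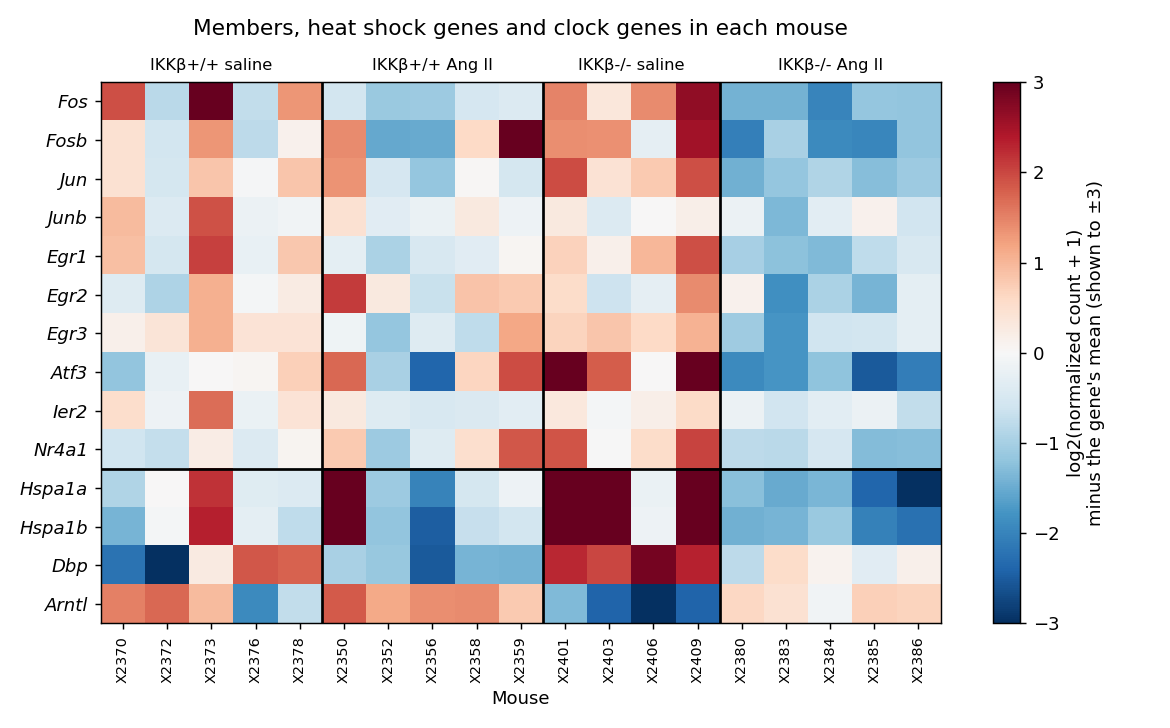
Log2(normalized count + 1) minus the gene's mean over 19 mice (red above, blue below, shown to ±3) for the 10 members and, below the line, the heat shock genes Hspa1a and Hspa1b and the clock genes Dbp and Arntl, in the 4 groups. Mice X2401 and X2409 are high in Hspa1a and most members, X2403 in Hspa1a, Fosb and Atf3, X2406 is high in Fos, Egr1 and Jun with Hspa1a at 733, and all Ang II-treated IKKβ-/- mice are low in Atf3 and Fosb.

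Of 10 clock genes, 5 fell and 3 rose with Ang II in IKKβ-/- mice. Dbp, an output of the circadian clock, measured 441 to 1132 with Ang II and 3060.4 to 5597 with saline, and Arntl, which encodes the activator BMAL1, measured 255 to 453 and 12.6 to 109. Neither gene overlapped between these groups, and the summed level of the list did not either (8949 to 12313 against 15911 to 21941). In IKKβ+/+ mice the groups overlapped in Dbp (134 to 393 with Ang II, 71.5 to 2806 with saline) and no clock gene passed. Between genotypes with saline, 6 clock genes were higher and 3 lower in IKKβ-/- mice. With a clock score as covariate no member passed in IKKβ-/- mice by limma, and 10 genes of the table did. At an unadjusted p under 0.05 were 7 members, as against 9 without the covariate. Over all genes 2636 of 14845 were under it without the covariate. Their number with it was not counted, so the 7 have no share over all genes to be read against. Fos was then at -3.12 ± 0.89 (adjusted p = 0.362), Jun at -2.16 ± 0.59 (adjusted p = 0.332) and Atf3 at -3.60 ± 1.13 (adjusted p = 0.421). Since the clock score and the treatment separate the same IKKβ-/- mice, their parts cannot be told apart.

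Of 5 tested adipocyte markers, 4 rose with Ang II in IKKβ-/- mice, led by Cidec (4.89 log2), Adipoq (4.70) and Plin1 (4.04). Their sum over the 6 listed markers was 2315 to 25079 normalized counts with Ang II and 1019.7 to 4241 with saline, and none was at 0 in a whole group. With an adipocyte score as covariate no member passed by limma in IKKβ-/- mice, and 22 genes of the table did. In this fit 7 members were at an unadjusted p under 0.05. The number over all genes was not counted, so the 7 have no share to be read against. Fos was at -3.15 (adjusted p = 0.179), Jun at -2.41 (adjusted p = 0.123) and Atf3 at -3.84 (adjusted p = 0.198). Of the other marker lists in IKKβ-/- mice with Ang II, endothelial Kdr and Schwann cell Sox10 rose (1 of 6 and 1 of 4 tested), and no tested SMC (6), fibroblast (6), macrophage (6), neutrophil (4), T and B cell (2), striated muscle (4) or red blood cell (5) marker passed. Th and Dbh were at 0 in all saline-infused IKKβ-/- mice. In IKKβ+/+ mice with Ang II the SMC genes Cnn1 and Tagln and striated Ckm rose, and endothelial Tek and fibroblast Lum fell. With saline, the macrophage genes Adgre1 and Cd68 were lower in IKKβ-/- mice. The part of these cell types in the members' values was not tested further.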

How the data were processed

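Bulk RNA-Seq of the SRA of 19 male mice was read from 1 table of 20408 genes. The authors made poly(A) libraries, trimmed single reads (Trimmomatic 0.35), aligned and counted them with STAR 2.7.1a on GRCm38 and Gencode genes and normalized with DESeq2 1.30.1. The deposited values are this signal, reads divided by a size factor. All were whole multiples of 1 read (tolerance 0.02), from which reads were recovered (11382573 to 19906694 per mouse, which limits Egr2 and Egr3 most). Genes with at least 10 in at least 4 mice were tested (14845, 5563 left out) on log2(value + 1) with limma 3.58.1 (R 4.3.3, trended eBayes, 1 mean per group, 5 contrasts, two-sided, Benjamini-Hochberg over all genes tested). Fold changes of low genes are understated on this scale. Genes below an adjusted p of 0.1 with more than a 1.2-fold change, the study's thresholds, were called, and "rose" and "fell" mean called.

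Alternatives tried were edgeR 4.0.16 and DESeq2 1.42.0 on recovered reads, TMM, array weights, a pseudocount of 4, no filter, a fit of the compared groups alone, stricter thresholds (0.05, or 1.5-fold) and each mouse left out. Scores as covariates and the removal of 5 mice were added after seeing the data. The heat shock and adipocyte scores were the mean centred log2 value of their list. The clock score was that mean over Per2, Per3, Nr1d1, Nr1d2, Dbp, Tef and Ciart minus that over Arntl, Npas2 and Clock. Pairs of members were tested by 100000 permutations of mice within groups. The fit was tested on simulated data.

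Members and gene lists were chosen with earlier results of these data known. Named genes are the members, the 3 called genes of a list with the largest change, the 10 genes most like the members, Ikbkb, and genes named where few were called. Mouse numbers mark animals, and no numbers pair mice across groups. The lowest chi-square per gene between 2 mice of a group was 21.1, so no 2 libraries were alike within sampling noise. Authors' qPCR, imaging and single-cell data were not analysed here.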

Additional observations from a re-analysis of the deposited data

Results flagged for a closer look

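A mouse far from the rest of its group (a gap to the next mouse above the 95% critical value of Dixon's test) was found in 6 of the 40 sets of 1 member in 1 group. The test was run on normalized counts, not on the log2 scale used elsewhere, and all 6 flagged values were high. Chance flags about 1 in 20 such sets only where values follow a normal distribution, which was not checked. Members correlate across mice, so the 6 are not independent. Among Ang II-treated IKKβ+/+ mice, X2359 was the highest in Fosb (4213 normalized counts, next 984) and in Egr3 (222, next 89.97), and X2350 the highest in Jun (5596, next 2268) and in Ier2 (739, next 486). Among saline-infused IKKβ+/+ mice, X2373 was the highest in Egr3 (209.7, next 132) and in Ier2 (1941, next 873). X2350 and X2373 were also the mice of their groups with the highest Hspa1a (6738 and 3781). None of the 20 sets of IKKβ-/- mice was flagged.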

How the results depend on the processing

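No paired analysis was possible because the mouse numbers pair no mice across groups. In IKKβ-/- mice with Ang II, 7 members passed under a pseudocount of 4, no filter, only the groups compared, array weights, TMM, edgeR, DESeq2, an adjusted p below 0.05 or a 1.5-fold threshold, 6 to 7 when a mouse was left out, and of those added after seeing the data 5 with the heat shock score, 3 without the 5 mice highest in Hspa1a and 0 with the clock or the adipocyte score. In IKKβ+/+ mice with Ang II, 1 passed, against 0 without the filter, with only the groups compared or at an adjusted p under 0.05, 3 with edgeR or DESeq2, 2 with the heat shock score, 0 with the clock score or without the 5 mice, and 0 to 3 with a mouse left out. For the difference of the effects, 0 passed, against 3 with array weights, 1 with edgeR, 4 with DESeq2 and 0 to 3 with a mouse left out. Between genotypes with saline, 1 passed, against 0 without the filter, with TMM, at an adjusted p under 0.05, with each score or without the 5 mice, 2 with only the groups compared, edgeR or DESeq2, 3 with array weights and 0 to 0 with a mouse left out. Between genotypes with Ang II, 0 passed, against 5 with DESeq2 and 0 to 4 with a mouse left out. Of 45 pairs of members 30 passed, 30 with a pseudocount of 4, 32 with TMM, 11 to 32 with a mouse left out and 1 without the 5 mice. Counts over all genes moved as well. In IKKβ-/- mice with Ang II 785 passed, 293 with only the groups compared and 1164 with DESeq2. In IKKβ+/+ mice 1286 passed, 1897 with only the groups compared, 1373 with edgeR and 1887 with DESeq2. For the difference 0 passed, 76 with array weights, 3 with edgeR and 279 with DESeq2. Between genotypes 812 passed with saline, 1347 with only the groups compared and 1902 with array weights. With Ang II 19 passed, and 521 with DESeq2. No called member changed direction under any alternative. The cause of the changes was not tested. Depth limits Egr2 most (11 reads at the lowest).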

Other observations

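Genes known as targets of AP-1 and EGR factors (23 tested of 25 listed) had a median log2 difference with Ang II of 0.80 in IKKβ+/+ mice, beside 0.006 over all genes, and 6 of them rose and none fell. They were Il11, a cytokine of the IL-6 family (3.35 log2, adjusted p = 0.0263), Timp1, an inhibitor of metalloproteinases (1.68, adjusted p = 0.0150), Plaur, the urokinase receptor (1.59, adjusted p = 0.00991), Cd44, Hbegf and Mmp3. Of all genes tested, 4.33% rose and 4.33% fell with Ang II in IKKβ+/+ mice. In IKKβ-/- mice the median of the target genes was 0.23 and only Mmp3, which encodes stromelysin-1, passed (1.47, adjusted p = 0.0147). There 2.59% of all genes rose and 2.69% fell. No target gene passed for the difference between genotypes by limma, nor with Ang II or with saline between genotypes. For the difference no gene of the whole table passed either. Areg was at 0 in all Ang II-treated IKKβ-/- mice.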
